A study of Mus musculus with 18 samples.

Results

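Mouse embryos without the maintenance DNA methyltransferase Dnmt1 were compared with wild-type (WT) embryos at E8.5, embryonic day 8.5, when the first organs form. The comparison took the 3 libraries labelled Dnmt1 KO and the 7 libraries labelled WT, 10 of the 18 single-embryo libraries of the series, by their titles. Each library held the transcripts of single cells from 1 embryo, counted as unique molecular identifiers (UMIs) with the 10x Genomics 3′ v3 assay after about 16000 cells had been loaded. The embryo was the unit of replication throughout, so UMIs were summed over the cells of an embryo before any test.

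Dnmt1 KO embryos carried a germline mutation of Dnmt1 on both chromosomes, so in all tissues, on the 129S4/SvJae background, and came from natural matings of heterozygous mice. WT embryos came from heterozygous matings too, at the same stage and on the same strain. The labels do not say whether a given WT embryo came from matings of the Dnmt1, Dnmt3a or Dnmt3b line, so WT embryos need not be littermates of Dnmt1 KO embryos. Embryos were genotyped by PCR on ectoplacental cone tissue and dissociated one by one. No embryo of either group received a treatment.

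DNMT1, recruited by UHRF1 to newly replicated DNA, copies cytosine methylation at CpG dinucleotides from the parental strand to the new strand. When it is missing, methylation is diluted as cells divide. In somatic cells of the early embryo, promoter methylation is known to keep many germline genes silent, and methylation of 1 parental copy at imprinting control regions sets which copy of an imprinted gene is expressed.

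After removal of cell barcodes with under 1500 UMIs or over 30% mitochondrial counts, 1502, 3158 and 2893 cells remained in Dnmt1 KO 1, 2 and 3, with 85250129 to 137196441 UMIs per embryo, and 1381 to 9063 cells in the WT embryos, with 37342307 to 252074888 UMIs. Mitochondrial genes took 4.04% to 4.46% of counts in Dnmt1 KO and 2.76% to 3.28% in WT embryos, without overlap. Any 2 of the 10 libraries shared at most 82 cell barcodes, and the largest share of a library's barcodes was 3.73%. By 4 Y-linked genes, the 3 Dnmt1 KO embryos and WT 2 were male and the other 6 WT embryos female, so sex and genotype were unbalanced, and sex as a covariate was run as an alternative. Transcripts of granzymes, which mark maternal decidual natural killer cells, were seen in Dnmt1 KO 1 (19.9 CPM of Gzmf) and were near 0 in the other 9 libraries. WT 2 was the WT embryo with the most trophoblast cells, and WT 5 had the fewest cells of all. Their part in the results was not tested beyond the alternatives given with each count.

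Dnmt1 itself (ENSMUSG00000004099, mm10 chromosome 9, 20907209 to 20959888, minus strand) gave the check of the labels. Its level, in CPM, the UMIs of a gene scaled to the total of the embryo, was 14.9, 15.6 and 15.1 CPM in Dnmt1 KO 1, 2 and 3, and 83.9, 104 and 115 CPM at the lowest, the median and the highest of the WT embryos. Its 3 Dnmt1 KO values were lower than any WT value, with a log2 fold change (KO minus WT) of -2.70 (SE 0.096, adjusted p = 2.2e-09, edgeR quasi-likelihood test). The gene was lower in all 10 cell classes that could be tested. The assay tags the 3′ end, so remaining UMIs can come from transcripts of the disrupted gene and do not measure protein.

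Across the whole embryo, 18319 genes were tested, and those counted as changed had an adjusted p under 0.01 together with an absolute log2 fold change of 1 or more. In Dnmt1 KO embryos 1375 genes were higher (7.51%) and 1054 were lower (5.75%). These shares over all genes are the background for the list counts below. All 3 Dnmt1 KO embryos lay above every WT embryo for 1253 of the higher genes and below every WT embryo for 1040 of the lower genes. The higher genes were mostly near silence in WT embryos: 1113 had a WT mean under 1 CPM, and 502 passed the filter on low counts through the Dnmt1 KO embryos alone, so that these had to differ. Of genes with a WT mean of at least 10 CPM, 57 were higher and 208 lower. On the X chromosome 131 of 669 tested genes were higher and 26 lower. With sex as a covariate, which rests on WT 2 as the single male WT embryo, 361 of the higher and 299 of the lower genes were still called and all 2429 kept their direction. For the 1253 and 1040 genes without overlap the direction could hardly turn, since every Dnmt1 KO embryo was already beyond WT 2. The kept direction is therefore no separate check on sex. The count of lower genes was 583 without Dnmt1 KO 2 and 696 without Dnmt1 KO 1. Summed counts cannot tell fewer cells of a type from less RNA per cell. Counts within cell classes are therefore given beside those of the whole embryo for the main lists. Without extraembryonic (ExE) ectoderm and ExE endoderm cells, 1005 of the higher and 595 of the lower genes were still called. In at least 1 cell class, 804 of the higher and 671 of the lower genes were called in the same direction. Of 20 housekeeping genes, with a median log2 fold change of 0.02, 0 were called by edgeR or by DESeq2, and 6 had an unadjusted edgeR p under 0.05.

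Few other genes of the methylation machinery were called in the whole embryo. In the maintenance list of 9 genes Dnmt1 alone was called, and among 5 de novo methylation genes Dnmt3l alone was higher. Dnmt3l, the catalytically inactive partner of Dnmt3a and Dnmt3b, was at 9.72, 38.8 and 10.2 CPM in Dnmt1 KO 1, 2 and 3 against 0.147, 0.179 and 1.38 CPM (WT lowest, median and highest), a change of 5.78 ± 0.71 on the log2 scale (SE; adjusted p = 7.6e-05). Every Dnmt1 KO embryo exceeded every WT embryo, and WT 2 was the highest WT embryo. Dnmt3b stood at 94.9, 114 and 125 against 36, 64.8 and 87.3 CPM, above every WT embryo, and its log2 fold change of 0.91 was under the size required for a call; within classes it was called higher in neuroepithelium (2.13), erythroid cells (1.18) and caudal epiblast and neuromesodermal progenitors (NMP; 1.11). Of the de novo list 2 of 5 genes were higher in neuroepithelium, 1 in each of 4 further classes and 0 in the remaining 5. In neuroepithelium 872 of all 13741 tested genes were higher. Of 8 demethylation genes, Gadd45b rose (13.3, 40.6 and 14.5 against 6.03, 6.55 and 7.48 CPM, log2 fold change 1.86) and Gadd45a fell (10.6, 6.82 and 11.4 against 20.9, 25.4 and 30.5 CPM, log2 fold change -1.32), both stress-inducible members of one family. Gadd45b was not called without ExE cells (log2 fold change 0.43) or with sex as a covariate, and its highest level was in Dnmt1 KO 2, the embryo with the most ExE ectoderm cells. Within classes it was higher in 5 of 10, and the Tet genes were not called. Of 8 methyl-CpG binding genes, Mbd2 was lower, at 16.7, 14.4 and 18.2 against 23.6, 47 and 50.8 CPM (log2 fold change -1.34). Of 12 genes that silence imprints and repeats, Morc1, an ATPase needed to silence transposons in male germ cells, was higher from a very low level (0.486, 0.445 and 0.293 against 0.0198, 0.0593 and 0.107 CPM). Dnmt3l, Mbd2 and Morc1 were not called either with sex as a covariate (edgeR adjusted p = 0.0153, 0.0108 and 0.0406).

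Genes of the germline were higher in large part. The 3 lists (piRNA pathway, meiotic chromosome and germline regulators) held 76 different genes, of which 69 were tested, 47 were higher and 0 lower (2 lower at an unadjusted p under 0.05 and 0 by DESeq2), against a background of 7.51% higher. Their median log2 fold change was 2.85, and that of all genes tested 0.01. Of the tested members, 10 passed the low-count filter through the Dnmt1 KO embryos alone, 2 in the piRNA list, 3 in the meiotic list and 5 among the regulators. With sex as a covariate 31 of the 47 were called. Class counts below are a description for genes near 0 in WT cells: a class tested them only where Dnmt1 KO cells expressed them.

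The sequences below are the promoters of 4 germline genes that rose in all 10 tested cell classes, and of Rhox13, an X-linked gene that did so too; they are the DNA at which methylation would act, although methylation was not measured here. Each runs 5′ to 3′ on the gene's own strand from 250 bases before to 50 bases after the start of the RefSeq transcript (GRCm38.p6), and capitals mark CG dinucleotides.
Dazl, chr17:50293571-50293870, minus strand: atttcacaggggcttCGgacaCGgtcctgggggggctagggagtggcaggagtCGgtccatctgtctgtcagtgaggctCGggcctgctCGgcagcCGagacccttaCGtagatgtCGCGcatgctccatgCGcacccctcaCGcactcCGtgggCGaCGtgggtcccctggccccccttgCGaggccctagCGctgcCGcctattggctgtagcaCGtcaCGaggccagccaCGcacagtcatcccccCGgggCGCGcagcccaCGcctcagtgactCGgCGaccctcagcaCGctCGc
Sycp1, chr3:102936051-102936350, minus strand: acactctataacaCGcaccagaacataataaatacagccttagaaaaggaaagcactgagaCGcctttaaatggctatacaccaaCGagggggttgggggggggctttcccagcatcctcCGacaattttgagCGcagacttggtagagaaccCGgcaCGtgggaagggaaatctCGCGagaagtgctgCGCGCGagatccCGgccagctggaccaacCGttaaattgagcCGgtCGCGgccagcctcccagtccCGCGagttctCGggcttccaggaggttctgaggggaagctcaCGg
Hormad1, chr3:95559427-95559726, plus strand: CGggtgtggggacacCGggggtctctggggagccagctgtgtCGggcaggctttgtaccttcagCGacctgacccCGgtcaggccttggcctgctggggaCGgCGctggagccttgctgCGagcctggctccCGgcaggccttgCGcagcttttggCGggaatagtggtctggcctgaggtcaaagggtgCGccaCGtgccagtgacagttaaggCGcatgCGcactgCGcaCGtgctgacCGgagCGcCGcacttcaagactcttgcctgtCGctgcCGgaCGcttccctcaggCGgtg
Asz1, chr6:18109012-18109311, minus strand: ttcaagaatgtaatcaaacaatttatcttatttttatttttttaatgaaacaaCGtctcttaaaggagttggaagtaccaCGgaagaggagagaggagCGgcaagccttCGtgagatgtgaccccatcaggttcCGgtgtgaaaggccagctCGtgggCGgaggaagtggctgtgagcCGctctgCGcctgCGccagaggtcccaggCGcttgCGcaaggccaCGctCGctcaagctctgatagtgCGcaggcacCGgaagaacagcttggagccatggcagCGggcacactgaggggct
Rhox13, chrX:38120590-38120889, plus strand: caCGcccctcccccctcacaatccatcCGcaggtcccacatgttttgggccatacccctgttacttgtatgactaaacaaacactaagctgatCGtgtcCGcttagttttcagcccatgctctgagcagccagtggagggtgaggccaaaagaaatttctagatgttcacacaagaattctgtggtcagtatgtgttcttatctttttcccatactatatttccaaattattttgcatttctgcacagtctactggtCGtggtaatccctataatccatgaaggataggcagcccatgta

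The promoters held 28 CG dinucleotides in Dazl, 24 in Hormad1, 21 in Sycp1, 17 in Asz1 and 5 in Rhox13, while the median was 18 over the promoters of the genes tested here (quartiles 9 and 27) and 7 over all 27025 promoters of that length in the RefSeq table. The letters CACGTG, an E-box that reads the same on both strands, occurred once in the Sycp1 window and at 2 places in the Hormad1 window, and in 9.54% of the promoters of tested genes and 7.24% of all promoters. The letters GCGGGAA, an E2F-like motif searched on both strands, occurred once in the Hormad1 window and in 7.61% of the promoters of tested genes and 4.66% of all promoters. Dazl, Asz1 and Rhox13 held neither run of letters. The table had a promoter for 37 of the 47 higher germline genes (78.7%) and for 72.6% of all genes tested, and since this coverage was incomplete, promoters were not compared between lists.

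Most regulators and housekeepers of germ cells rose. Dazl, an RNA-binding protein that germ cells need to enter meiosis, stood at 30.4, 26.5 and 30.1 CPM in Dnmt1 KO 1, 2 and 3 and at 0.0912, 0.134 and 0.258 CPM at the lowest, median and highest WT embryo. The groups were far apart, with a difference of 7.58 ± 0.22 in log2 units (SE; edgeR adjusted p = 7.2e-10), and Dazl was higher in all 10 tested classes. Sohlh2, a helix-loop-helix factor of early spermatogonia and oocytes, was at 12.7, 16.1 and 12.8 CPM against 0, 0.00847 and 0.227 CPM (log2 fold change 8.41), and WT 2 was the highest WT embryo. Rpl39l, the testis paralogue of a ribosomal protein, reached 131, 139 and 152 CPM against 0.946, 1.98 and 3.08 CPM (log2 fold change 6.20). Both were higher in all 10 classes. Pdha2, the testis form of a pyruvate dehydrogenase subunit, was at 4.69, 3.15 and 8.04 CPM against 0, 0.0113 and 0.0268 CPM, and Tuba3b, a testis alpha-tubulin whose reads may be split with Tuba3a, at 4.78, 2.87 and 4.61 CPM against 0, 0.0127 and 0.0291 CPM. Both passed the low-count filter only through the Dnmt1 KO embryos. Dnd1 and Stk31, an RNA-binding protein and a kinase-like protein of germ cells, were also higher in all 10 classes, with log2 fold changes of 3.01 and 4.09. Of the 26 regulators, 22 were tested and 20 were higher. The 2 tested regulators not called were Nanos3 and Taf4b, and Nanos2, Sohlh1, Figla and Pgk2 were too low to test.

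**Figure D1:**
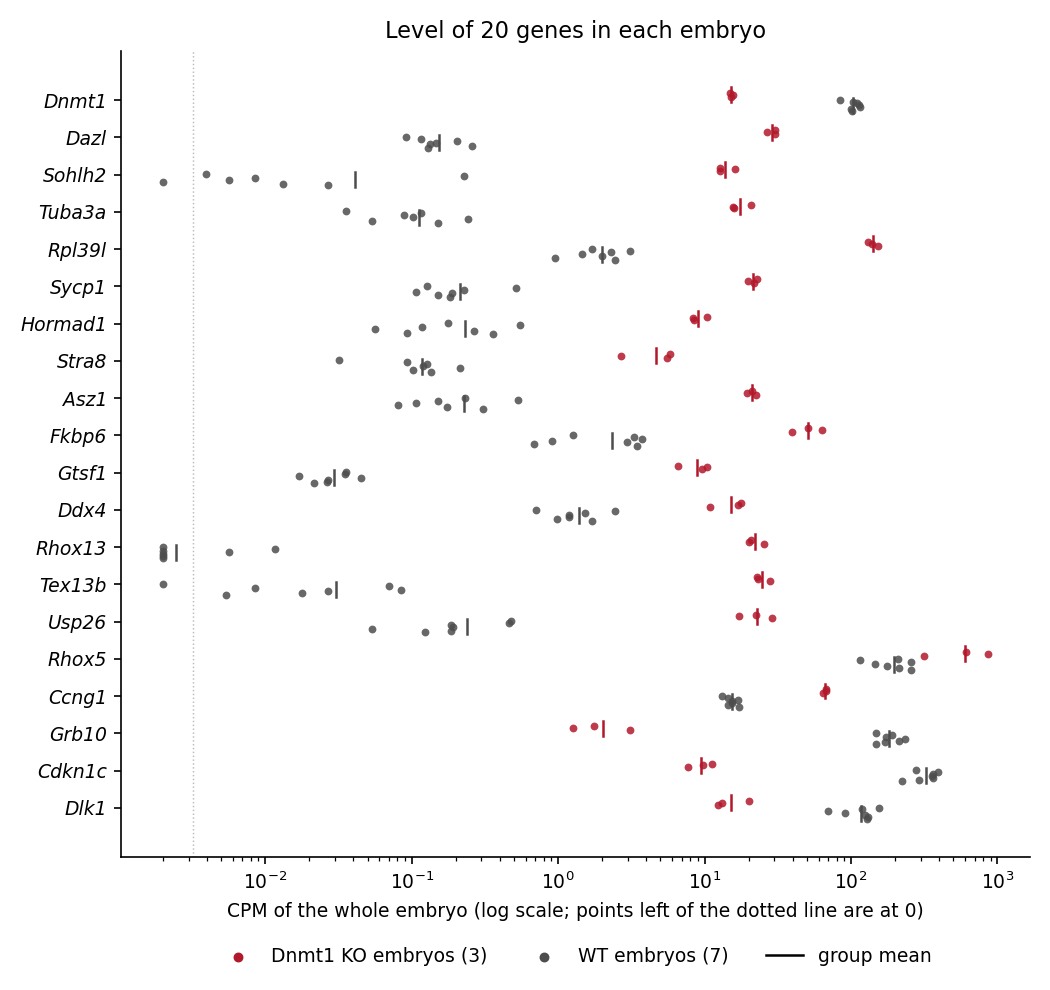
Level of 20 genes in each embryo, in CPM on a log axis, with 1 point per embryo and points left of the dotted line at 0. Red points are Dnmt1 KO and grey points WT embryos, with bars at the group means; they separate the 3 Dnmt1 KO from the 7 WT embryos: Dazl lies between 26.5 and 30.4 CPM in Dnmt1 KO and at or under 0.258 CPM in WT, whereas Dnmt1, Grb10 and Cdkn1c lie lower in every Dnmt1 KO embryo.

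Genes of the meiotic chromosome rose in part. Of 30 listed genes, 28 were tested and 18 were higher. Sycp1, the transverse filament of the synaptonemal complex, was at 22.7, 19.9 and 21.8 CPM in Dnmt1 KO 1, 2 and 3 against 0.108, 0.184 and 0.513 CPM (WT lowest, median and highest), a change of 6.69 ± 0.37 on the log2 scale (SE; adjusted p = 7.2e-08). Sycp2, a component of the axial element, was at 3.51, 2.06 and 5.09 CPM against 0.0268, 0.0622 and 0.146 CPM (log2 fold change 5.58). Neither gene overlapped between the groups, and both were higher in 10 of 10 classes. Hormad1, which marks unsynapsed chromosome axes, was at 10.5, 8.33 and 8.46 CPM against 0.0567, 0.179 and 0.548 CPM (log2 fold change 5.37). Stra8, the retinoic acid target that starts the meiotic programme, was at 5.77, 2.7 and 5.54 CPM against 0.0317, 0.119 and 0.214 CPM. It was called higher in the 8 classes where it could be tested, which is a description, since it was near 0 in WT embryos. Further structural members, Syce1, Syce3, Tex12 and Hormad2, rose with log2 fold changes of 5.11, 5.34, 5.30 and 3.22. The 10 tested members not called included Spo11, which makes the meiotic double-strand breaks (-0.55 on the log2 scale), the recombinase Dmc1 (0.06), Prdm9, which places the breaks (0.42), and the mismatch proteins Msh4 (0.92) and Msh5 (-0.01).

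The piRNA pathway, in which small RNAs guide PIWI proteins against transposons in germ cells, was split. Of 20 genes, 19 were tested and 9 were higher. Gtsf1, a zinc-finger cofactor of PIWI proteins, was at 6.6, 10.4 and 9.55 CPM in Dnmt1 KO 1, 2 and 3 and at 0.0169, 0.0268 and 0.0453 CPM at the lowest, median and highest WT embryo, a change of 8.24 ± 0.24 on the log2 scale (SE; adjusted p = 7.2e-10); it passed the low-count filter only through the Dnmt1 KO embryos. Asz1, a mitochondrial scaffold of the pathway, was at 20.9, 19.4 and 22.6 CPM against 0.0803, 0.173 and 0.536 CPM (log2 fold change 6.51). Fkbp6, a co-chaperone, was at 50.7, 63.4 and 39.3 CPM against 0.688, 2.97 and 3.72 CPM (log2 fold change 4.54). Asz1, Fkbp6, the acyltransferase Gpat2, the helicases Ddx4 and Mov10l1 were each higher in 10 of 10 classes. The PIWI genes differed among themselves: Piwil2 rose (log2 fold change 4.41), while Piwil1 and Piwil4 were not called (0.55 and 0.10), nor were the tudor-domain genes Tdrd1 (0.45) and Tdrd9 (0.48).

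The X-linked reproductive homeobox (Rhox) cluster and the Xlr, Mage and Tex13 families are expressed in germ cells and some in extraembryonic tissues. They held 67 genes, of which 49 were tested, 47 higher and 0 lower (2 lower at an unadjusted edgeR p under 0.05 and 0 by DESeq2). Over all genes 7.51% were higher, and on the X chromosome 19.6%. Members that passed the low-count filter only through the Dnmt1 KO embryos, counted below, had to be higher. In the Rhox cluster 22 of 32 genes were tested, 16 of them only through the Dnmt1 KO embryos; the 6 that passed in the WT embryos too were higher. Several members are near-identical copies whose UMIs may be split or lost, among them the Rhox2, Rhox3 and Rhox4 copies. Rhox13 had 7114 UMIs in the Dnmt1 KO and 3 in the WT embryos. Its level was 20.6, 20.02 and 25.4 CPM in Dnmt1 KO 1, 2 and 3 and at most 0.0117 CPM in WT, a ratio of 9241 with a 95% counting interval of 3161 to 44820. That interval covers counting error of the pooled UMIs only, and not the spread between embryos. Rhox5, which yolk sac endoderm and placenta express, was well detected in both groups, at 607, 868 and 316 CPM against 115, 211 and 256 CPM (WT lowest, median and highest), and its log2 fold change of 1.69 (adjusted p = 0.00076) was small beside those of silent members. Every Dnmt1 KO embryo still lay above every WT embryo.

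Among the Xlr, Mage, Tex13 and neighbouring genes, 25 of 27 tested genes were higher, 9 of the 27 having passed only through Dnmt1 KO embryos. Tex13b, a testis gene, was at 23, 23.3 and 27.9 CPM in Dnmt1 KO 1, 2 and 3 against 0, 0.0178 and 0.085 CPM, and Usp26, a testis ubiquitin protease, at 22.5, 17.2 and 28.8 CPM against 0.0536, 0.186 and 0.476 CPM. Both were higher in all 10 classes, without overlap in the whole embryo. Magea8, a cancer-testis antigen, had 229 UMIs in Dnmt1 KO and 0 in WT embryos; against a floor of 3 UMIs over the pooled WT embryos it was at least 297-fold higher. Magea10, of the same family, was at least 156-fold higher by the same floor. Trap1a, an X-linked gene of extraembryonic tissues, was at 342, 415 and 173 CPM against 47.3, 102 and 130.0 CPM (log2 fold change 1.76). The male embryo WT 2 had 115 CPM of Rhox5, 0.0117 of Rhox13, 0.0699 of Tex13b, 0.46 of Usp26 and 47.3 of Trap1a. With sex as a covariate 26 of the 47 were called.

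In all, members of these lists included, 1037 genes were higher with a WT mean under 1 CPM and no overlap between the groups, 98 of them on the X chromosome. The levels of the most abundant of them are given by rule. Trim5, a member of the tripartite-motif antiviral family, was at 35.9, 33.4 and 33 CPM in Dnmt1 KO 1, 2 and 3 and 0.0119, 0.04 and 0.237 CPM at the lowest, median and highest WT embryo (log2 fold change 8.98), and Cyct, the testis cytochrome c, at 26.4, 28.2 and 23.5 CPM against 0.227, 0.288 and 0.554 CPM (log2 fold change 6.33). Both were higher in all 10 classes, and the 3 Dnmt1 KO embryos were close to each other. Pkd1l2, a polycystin-like protein, varied more among them, at 56.7, 27.7 and 11.7 CPM against 0.204, 0.342 and 0.411 CPM. Serpinb1c, a serine protease inhibitor, had 8099 UMIs in Dnmt1 KO and 2 in WT embryos, a ratio of 15780 with a 95% counting interval of 4367 to 130327. The interval treats pooled UMIs as independent and leaves out the spread between embryos. Of the higher genes, 31 had no UMI in any WT embryo.

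Calls in the 2-cell stage, protocadherin and interferon lists stood beside whole-embryo shares over all genes of 7.51% higher and 5.75% lower. Of 24 genes of the 2-cell stage, 21 were annotated and 4 were tested. The 3 Usp17l copies Usp17la, Usp17lc and Usp17le were higher at a level of at most 0.327 CPM in any embryo. They had passed only through the Dnmt1 KO embryos, and 0 of these 3 were called with sex as a covariate. Zscan4d, a marker of the 2-cell-like state, had 60 UMIs, all in Dnmt1 KO 1. Of 57 clustered protocadherins, which neurons choose by promoter methylation, 21 were tested and 0 were called by edgeR in the whole embryo, 1 was higher and 6 were lower at an unadjusted p under 0.05, and 2 were lower by DESeq2. Within classes a few were higher and none lower. These were Pcdhga10 in endothelium (1 of 4 tested) and with Pcdhga11 in extraembryonic mesoderm (2 of 6), and Pcdhga11 in lateral and pharyngeal mesoderm (1 of 14). Over all genes 343 of 10643, 558 of 12866 and 867 of 13700 were higher in these classes. Such small counts are not read as a result about the list. In the list of 29 interferon and RNA-sensing genes, 24 were tested, 4 were higher and 1 lower (1 and 0 of these with sex as a covariate): Bst2, an antiviral membrane protein, was at 128, 169.6 and 74.2 CPM against 21.9, 40.7 and 50.6 CPM (WT lowest, median and highest) and higher in 8 of 10 classes, while the sensors Ifih1 (0.74 on the log2 scale), Ddx58 (-0.04) and Mavs (-0.37) and the target Isg15 (-0.21) were not called in the whole embryo. In caudal epiblast and NMP Ifih1 was higher (2.77). In erythroid cells 4 of the 9 tested genes of the list were higher, Isg15 among them (1.21), beside 756 of 11075 over all genes. Tmem173, which encodes STING, was lower (-1.35).

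Targets of the stress-responsive transcription factor p53 rose in part. By edgeR 12 of 30 were higher and 0 lower (13 and 0 by DESeq2, and 21 and 0 at an unadjusted edgeR p under 0.05). The background over all genes was 7.51% higher and 5.75% lower. Ccng1, cyclin G1, was at 67.7, 67.4 and 64.2 CPM in Dnmt1 KO 1, 2 and 3 and 13.1, 15.3 and 17.3 CPM at the lowest, median and highest WT embryo, a change of 2.19 ± 0.084 on the log2 scale (SE; adjusted p = 3.6e-09). Trp53inp1, a p53-induced nuclear protein, was at 22.7, 18.3 and 16.7 CPM against 2.83, 3.64 and 4.34 CPM (log2 fold change 2.48), and the death receptor Eda2r at 4.09, 3.18 and 4.84 CPM against 0.435, 0.554 and 0.743 CPM (log2 fold change 2.88). The Dnmt1 KO embryos lay within a narrow range and above every WT embryo for all 3 genes. Cdkn1a, the cell cycle inhibitor p21, was at 43.9, 34.6 and 38 CPM against 11.4, 14.2 and 16.3 CPM (log2 fold change 1.54). Trp53inp1 was higher in 10 of 10 classes, Ccng1 and Eda2r in 9 and Cdkn1a in 8. Mdm2, the inhibitor that p53 itself induces, and the apoptosis gene Bax had log2 fold changes of 0.39 and 0.47 in the whole embryo. They were not called there or in any class. In erythroid cells their rises of 0.78 and 0.65 (edgeR adjusted p = 2.9e-05 and 4.8e-05) fell short by size alone. In endothelium they had 0.29 and 0.03 (edgeR adjusted p = 0.15 and 0.88). With sex as a covariate 7 of the 12 were called.

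Imprinted genes moved in both directions. The lists held 64 genes, 58 tested, 8 higher and 18 lower (4 and 11 of these with sex as a covariate), beside backgrounds of 7.51% and 5.75%. At the Igf2 and H19 locus, where a methylated paternal control region is known to permit the growth factor Igf2 and keep the non-coding RNA H19 silent on that copy, Igf2 fell and H19 rose. Igf2 was at 0.439, 1.85 and 0.457 CPM in Dnmt1 KO 1, 2 and 3 against 6.93, 9.61 and 12 CPM (WT lowest, median and highest; log2 fold change -3.20), with the limit that the gene model Gm49394 overlaps it on the same strand. H19 was at 1721, 1471 and 1084 CPM against 414, 480.5 and 548 CPM (log2 fold change 1.603, adjusted p = 2.3e-06). Igf2 was lower in 9 and H19 higher in 4 of 10 classes. At the Dlk1 and Meg3 locus, the Notch-related Dlk1 fell, at 20.2, 13.1 and 12.4 against 69.4, 125 and 156 CPM (log2 fold change -2.88), and the deiodinase Dio3 fell (-1.96), while the non-coding Meg3 and Mirg had log2 fold changes of 0.91 and 0.99 and were not called in the whole embryo; within classes Meg3 was higher in 3 and Mirg in 4 of 10.

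Several genes expressed from the maternal copy fell. Grb10, an inhibitor of insulin and IGF signalling (mm10 chromosome 11, 11930508 to 12038683), was at 1.76, 1.27 and 3.09 CPM in Dnmt1 KO 1, 2 and 3 against 148, 172 and 234 CPM (log2 fold change -6.43, SE 0.30, adjusted p = 1.5e-08). Cdkn1c, the cell cycle inhibitor p57 (chromosome 7, 143458339 to 143461050), was at 11.2, 9.7 and 7.67 CPM against 221, 359 and 392 CPM (log2 fold change -5.02, SE 0.23, adjusted p = 1.5e-08). Both were lower in all 10 classes, with every Dnmt1 KO embryo below every WT embryo. In the same domain as Cdkn1c, Kcnq1 and Slc22a18 were lower (-3.13 and -1.19), Phlda2 was not called in the whole embryo (0.26) but was lower in ExE endoderm (-3.59) and higher in 3 classes, and the antisense non-coding RNA Kcnq1ot1, expressed from the paternal copy, had 0.64 and was higher in 4 of 10 classes. Igf2r, the receptor that clears IGF2, was at 24.7, 13.9 and 20.6 against 59.2, 68.7 and 87 CPM (log2 fold change -1.83), and its neighbours Slc22a2 and Slc22a3 were lower (-3.13 and -5.25), while the non-coding Airn of that domain had 0.89 and was not called in the whole embryo but was higher in ExE endoderm (1.62), extraembryonic mesoderm (1.26) and erythroid cells (1.19).

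Paternally expressed genes that rose included Peg3, a zinc-finger gene, at 966, 823 and 956 CPM against 301, 340.3 and 393 CPM (log2 fold change 1.52), Peg10, a retrotransposon-derived gene of the placenta, at 518, 533 and 280.0 against 77.4, 109.7 and 143 CPM (2.10), Zrsr1, a splicing factor gene (1.21), and Impact, a translational regulator (1.35), which was higher in all 10 classes. Of other imprinted genes, Zdbf2 (-2.18) and the Peg3 neighbour Zim1 (-3.77) were lower, Zim1 at 0.187, 0.299 and 0.152 against 2.31, 3.16 and 4.18 CPM. Of the Snrpn domain, Snrpn (0.50) and Ndn (-0.54) were not called in the whole embryo; Snrpn was higher in neuroepithelium (1.29) and Ndn lower in ExE endoderm (-1.25). In 2 imprinted genes the rise in the whole embryo was smaller without extraembryonic cells. Sfmbt2, at 37.3, 102 and 22.5 CPM against 7.89, 10.2 and 14 CPM, had a log2 fold change of 2.43 in all cells. Without the extraembryonic (ExE) ectoderm and ExE endoderm cells it had 0.60. Ascl2, a trophoblast transcription factor counted with the maternally expressed genes, was at 4.66, 59.4 and 6.15 CPM against 0.599, 0.729 and 3.42 CPM. Its log2 fold changes in all cells and without those cells were 4.39 and 0.65. Sfmbt2 contains many small RNA genes on its strand. Without those cells neither gene was called, although Sfmbt2 was higher within gut endoderm (1.85) and Ascl2 within ExE endoderm (3.66).

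Hox genes, which pattern the body axis from head to tail, were lower as a group. Of 39 genes, 35 were tested, 24 were lower and 1 higher, with medians of -1.62 for anterior, -1.52 for middle and -2.35 for posterior genes. The background was 5.75% lower and 7.51% higher. With sex as a covariate 5 anterior, 6 middle and 6 posterior genes were called lower. Hoxa9 was at 0.916, 0.554 and 1.06 CPM in Dnmt1 KO 1, 2 and 3 against 11, 18.4 and 21.4 CPM (WT lowest, median and highest; log2 fold change -4.30), and Hoxc8, which overlaps neighbouring Hoxc models on its strand, at 6.1, 3.53 and 4.62 against 40.5, 45.4 and 58.2 CPM (-3.32). Both were lower in 8 of 10 classes. In the Hoxc cluster Hoxc4, Hoxc6 and Hoxc10 had log2 fold changes of -3.12, -3.25 and -4.61. In the Hoxb cluster Hoxb1 (-0.47), Hoxb2 (-0.80), Hoxb5 (-0.35), Hoxb6 (-0.87) and Hoxb7 (-0.62) were not called, while Hoxb3 (-1.62), Hoxb4 (-1.08), Hoxb8 (-1.51) and Hoxb9 (-2.84) were lower. Hoxd1, at the anterior end of its cluster, was not called (-0.69). A difference between clusters was not tested. Hoxc13 was the single higher gene, at 0.523, 0.459 and 0.211 against 0.0476, 0.107 and 0.127 CPM, with a log2 fold change of 2.12 in all cells and 0.73 without the ExE cells, where it was not called. Within classes, posterior genes were lower in 10 of 12 tested in extraembryonic mesoderm, 6 of 8 in endothelium, 5 of 11 in lateral and pharyngeal mesoderm, 4 of 5 in ExE endoderm, 3 of 5 in gut endoderm and in paraxial mesoderm, 3 of 4 in surface ectoderm and in caudal epiblast and NMP, 1 of 4 in neuroepithelium and 0 of 4 in erythroid cells. Of all genes tested, 413 of 12866 were lower in extraembryonic mesoderm, 347 of 10643 in endothelium and 398 of 13700 in lateral and pharyngeal mesoderm. Lower genes were 432 of 13766 in ExE endoderm, 388 of 12173 in gut endoderm and 300 of 13116 in paraxial mesoderm. They were 430 of 12208 in surface ectoderm, 273 of 11641 in caudal epiblast and NMP, 566 of 13741 in neuroepithelium and 346 of 11075 in erythroid cells. The fifth posterior Hox gene tested in ExE endoderm was higher. In the same class genes that mark other tissues were lower too, 10 of 20 somite and tail bud genes (median log2 fold change -2.50), 5 of 16 neural genes (-1.66) and 5 of 21 heart genes (-1.43), and the part of free RNA from other cells in the Hox counts of ExE endoderm was not tested.

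**Figure D2:**
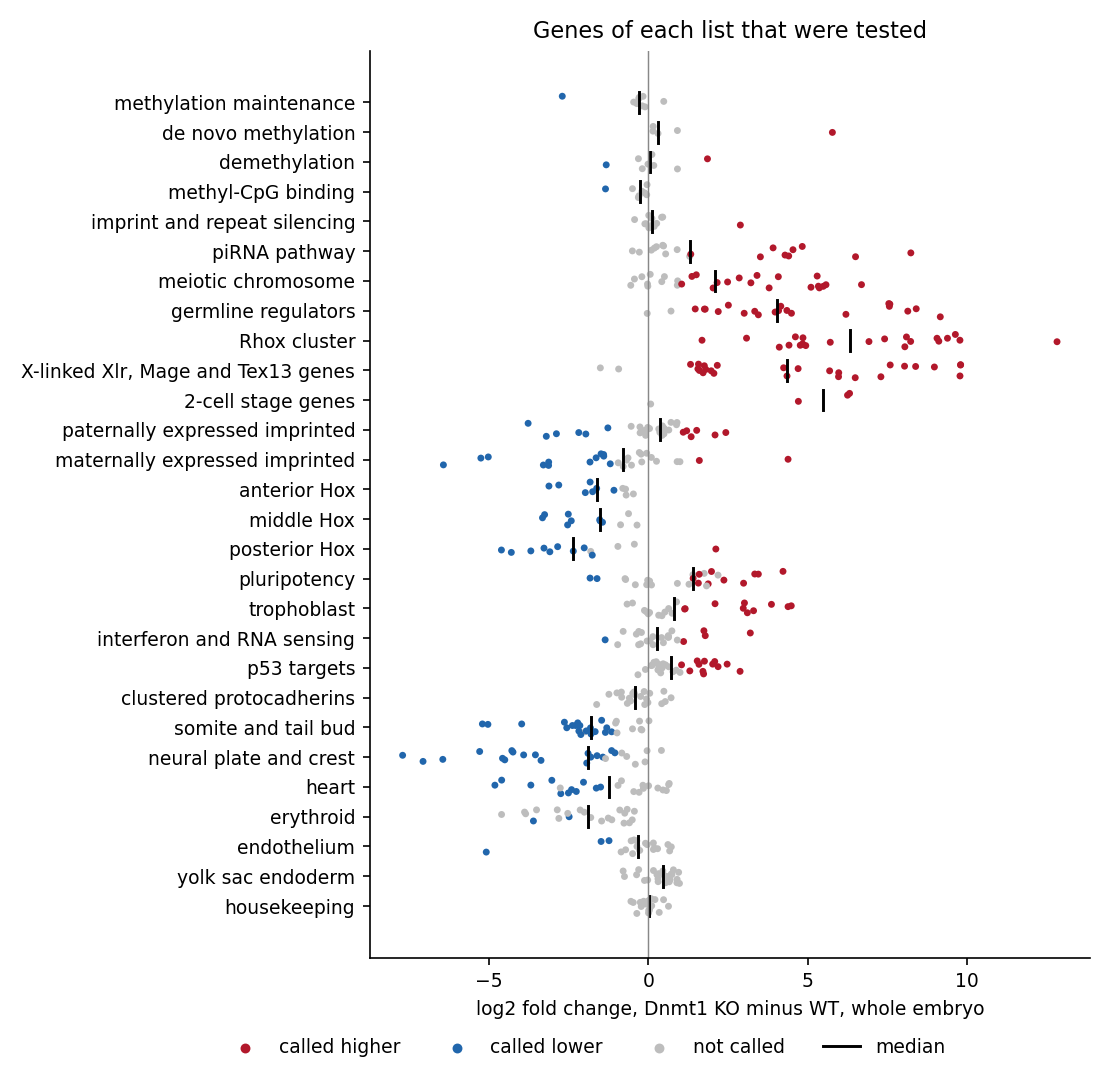
Log2 fold change (Dnmt1 KO minus WT, whole embryo) of every tested member of the gene lists, 1 point per gene and 1 row per list, with genes called higher in red, called lower in blue and not called in grey, and bars at the medians. The medians of the germline and X-linked lists lie to the right of 0 and those of the Hox, somite, neural and heart lists to the left, and the 20 housekeeping genes lie around 0.02.

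Genes of differentiating tissues were lower in the whole embryo, beside a background of 5.75% lower and 7.51% higher. Of 77 genes of somites and tail bud, neural plate and crest, and heart, 48 were lower and 0 higher by edgeR, 50 and 0 by DESeq2, and 57 and 4 at an unadjusted p under 0.05 (19 of 28, 18 of 25 and 11 of 24; medians -1.81, -1.89 and -1.22). In somites, Pax1, a factor of the sclerotome, Meox2, a homeobox factor, and Uncx had log2 fold changes of -5.21, -5.03 and -3.97. In the neural list, the neural crest factors Tfap2b (-7.71), Foxd3 (-7.07) and Sox10 (-5.29) and the ventral neural factor Olig2 (-6.45) fell most. Tfap2b stood at 0.0187, 0 and 0.0235 CPM in Dnmt1 KO 1, 2 and 3 against 1.8, 2.87 and 4.71 CPM. Among heart genes, the myosin heavy chains Myh6, at 1.3, 0.569 and 0.61 against 17, 24.2 and 34.6 CPM (log2 fold change -4.81), and Myh7 (-4.60) fell with the sarcomeric actin Actc1 (-3.69). Within classes, 10 of 25 tested neural genes were lower and 0 higher in neuroepithelium (median -1.89), where the groups drew on different clusters of cells as given below, as were 11 of 28 somite genes in paraxial mesoderm (median -0.80) and 7 of 21 in caudal epiblast and NMP. Heart genes gave other counts within classes: 9 of 24 tested were higher and 0 lower in lateral and pharyngeal mesoderm (median log2 fold change 0.64), 7 of 22 and 0 in paraxial mesoderm (1.24), and 6 and 2 of 24 in extraembryonic mesoderm (0.05), while 0 were higher and 4 of 17 lower in gut endoderm (-0.12). Over all genes, 867 of 13700 were higher and 398 lower in lateral and pharyngeal mesoderm, and 593 of 13116 and 300 in paraxial mesoderm. The same counts were 558 of 12866 and 413 in extraembryonic mesoderm and 557 of 12173 and 388 in gut endoderm. In neuroepithelium 566 of 13741 genes were lower, and in caudal epiblast and NMP 273 of 11641. The somite, neural, heart, erythroid and endothelial lists took part in the clustering that made the classes. The whole-embryo falls also stood beside lower shares of the classes. No kept cell of the Dnmt1 KO embryos was assigned to neural crest, and cardiomyocytes made up at most 0.266% of them. Whether crest cells with low crest markers were placed in other classes or left unnamed was not tested. The study, with CRISPR embryos added and cells mapped to a reference atlas, reported changed genes in Dnmt1 KO neural crest. With sex as a covariate 22 of the 48 were called.

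Erythroid genes varied widely between WT embryos, with a summed level of 3437 to 38618 CPM (1587 to 2010 CPM in Dnmt1 KO), and endothelial genes less so, at 208 to 330 CPM (226 to 264 CPM in Dnmt1 KO). The embryonic globin Hba-x was at 676, 453 and 725 CPM in Dnmt1 KO 1, 2 and 3 against 1665, 3490 and 18226 CPM (WT lowest, median and highest; log2 fold change -3.61, adjusted p = 0.00781), without overlap, and the erythroid factor Klf1 was lower (-2.48). The remaining 20 of 22 erythroid genes were not called in the whole embryo, although the list median was -1.91, and DESeq2 called 10 of the 22 lower. Neither Hba-x nor Klf1 was called without ExE cells. With sex as a covariate 1 erythroid gene was called lower. Within erythroid cells 11 of the 22 were lower and 0 higher (median -1.09), while 6 of 12 tested endothelial genes were higher and 0 lower (median 1.2), among them the VEGF receptor gene Kdr (2.42), the cadherin gene Cdh5 (2.42) and the factor gene Etv2 (1.77). Of all 11075 genes tested in erythroid cells, 756 were higher and 346 lower. Cluster 7 of the WT-defined clusters held 26.2% of WT erythroid cells and none from Dnmt1 KO embryos, so that levels within the class and its makeup cannot be told apart. Of 20 endothelial genes 3 were lower, among them the sialomucin Emcn, at 0.234, 0.0437 and 0.0235 against 1.47, 3.5 and 6.07 CPM (log2 fold change -5.09), with Sox18 (-1.48) and Plvap (-1.23). Within the endothelium class the same 3 genes were lower, and 1 of the 3 was called in the whole embryo without ExE cells. With sex as a covariate 1 endothelial gene was called lower in the whole embryo. Of 25 genes of yolk sac endoderm, with a median of 0.48, 0 were called by edgeR or DESeq2 and 10 had an unadjusted p under 0.05.

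Pluripotency genes were higher in part, with 10 of 25 higher and 2 lower, beside 7.51% higher and 5.75% lower over all genes. The lower count is near that background. Utf1, a chromatin factor of the epiblast, was at 17.4, 72.7 and 22.2 CPM in Dnmt1 KO 1, 2 and 3 against 1.16, 1.44 and 5.43 CPM (log2 fold change 4.23), and Dppa5a, an RNA-binding protein of pluripotent and germ cells, at 16.5, 27.8 and 18.5 against 1.53, 2.2 and 2.93 CPM (3.34). Dppa5a was higher in all 10 classes and Utf1 in 4 of 7. Pou5f1, which encodes OCT4, was at 30.2, 19 and 52.1 against 0.71, 9.94 and 27.9 CPM, so that the groups overlapped, and was not called in the whole embryo (log2 fold change 1.76, adjusted p = 0.0875), but was higher in 6 of 10 classes. Nanog (2.19, adjusted p = 0.019) was not called either. Sox2 was lower (-1.61), as was Tdgf1 (-1.83). The classes with the most higher members were caudal epiblast and NMP (11 of 19 tested) and neuroepithelium (11 of 21). Of all genes tested, 567 of 11641 and 872 of 13741 were higher in these classes. With sex as a covariate 2 of the 10 were called.

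Trophoblast genes were higher in the whole embryo, 10 of 22 tested by edgeR and 7 by DESeq2, beside 7.51% of all genes by edgeR. With sex as a covariate 2 of the 10 were called. Without ExE ectoderm and ExE endoderm cells 4 genes of the list were called higher, and 3 of these were among the 10. Elf5, a factor that maintains trophoblast stem cells, was at 7.01, 31.6 and 7.4 CPM in Dnmt1 KO 1, 2 and 3 against 0.402, 0.54 and 1.84 CPM (log2 fold change 4.49), and 0.31 without ExE cells. Tfap2c changed from 3.11 to 0.50 and Wnt7b from 3.30 to -0.75. Dnmt1 KO 2 had the highest level of all 3 genes and the largest share of ExE ectoderm cells. Of 11 trophoblast giant cell genes 2 were tested; the placental lactogens Prl3d1 and Prl3b1 were too low to test, and the list's summed level was 0.340 to 0.972 CPM in Dnmt1 KO and 0.0133 to 0.189 CPM in WT embryos. Of 17 maternal decidual genes 8 were tested and 2 were lower (Dcn and Lum), with a summed level of 65.0 to 157 CPM in Dnmt1 KO and 96.1 to 156 CPM in WT embryos. The part of these cells in the results was not tested.

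Among genes well expressed in WT embryos, the rule for the largest autosomal rises named Fabp3, Mt2, Noct, Hspb1, Mt1, S100a6 and Fabp1 among others. Mt1 and Mt2, the metallothioneins that bind zinc, were at 1736, 1887 and 702 and 399, 659 and 232 CPM in Dnmt1 KO 1, 2 and 3 against 241, 287 and 525 and 48.8, 53.8 and 97.1 CPM (WT lowest, median and highest; log2 fold changes 2.27 and 2.83). ExE endoderm made up 28.0%, 26.6% and 8.503% of cells in Dnmt1 KO 1, 2 and 3 and 9.602% to 20.05% in WT. WT 3, with the highest WT share, had the highest WT level of Mt1. Dnmt1 KO 3, with the lowest share of all, still lay above every WT embryo for both genes. The part of ExE endoderm cells in the Mt1 and Mt2 levels was not tested. Noct, a phosphatase with daily rhythms that overlaps Gm38357 on its strand, was at 101, 117 and 75.3 against 10.5, 14.4 and 19.8 CPM (2.82) and higher in all 10 classes, and the heat shock protein Hspb1 at 79.4, 179.8 and 68 against 17.9, 20.8 and 38.90 CPM (2.29) and higher in 9. No gene of the 4 overlapped between the groups. Fabp3, a fatty acid carrier, had a log2 fold change of 3.88 in all cells and 1.42 without ExE cells, and Fabp1, which intestine and liver express, 2.08 and 0.25. Of the falls, Foxd1, a forkhead factor of mesenchyme and forebrain, was at 0.346, 0.124 and 0.282 against 18.6, 22.7 and 30.1 CPM (-6.56), and Ankrd1 (-5.97) and Acta1 (-4.49), genes of muscle, followed.

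Cells were then grouped into 15 classes from clusters of WT cells alone, made without the methylation, germline, X-linked, imprinted, Hox, pluripotency, trophoblast, interferon and p53 lists, and each cell took the class of its nearest WT cells. Classes were named from marker genes and left unnamed where the markers did not decide (3.51% to 19.7% of cells in Dnmt1 KO and 8.67% to 21.0% in WT embryos). In 10 classes at least 3 embryos per group had 25 cells or more. Between 6.48% of tested genes (endothelium) and 10.5% (neuroepithelium) were called in a class, with 7.22% in caudal epiblast and NMP, 9.95% in erythroid cells, 6.84% in ExE endoderm, 7.55% in extraembryonic mesoderm, 7.76% in gut endoderm, 9.23% in lateral and pharyngeal mesoderm, 6.81% in paraxial mesoderm and 7.65% in surface ectoderm. Higher genes outnumbered lower ones in 9 of the 10, and in endothelium 343 were higher and 347 lower. The largest WT-defined cluster of a class differed between the groups in erythroid cells (cluster 4 in Dnmt1 KO, 2 in WT), ExE endoderm (10 and 5) and extraembryonic mesoderm (26 and 24), so that the makeup within these classes was not the same. In neuroepithelium cluster 3 held 70.9% of Dnmt1 KO and 35.7% of WT cells. Cluster 6, with 28.0% of WT cells, was not among the 3 largest in Dnmt1 KO. Relative UMI depth was 0.234 in cluster 3 and 1.12 in cluster 6. It was 1.51 and 0.516 in clusters 4 and 2, and 1.83 and 0.107 in clusters 10 and 5. Clusters 26 and 24 were alike (1.16 and 1.197). Of Dnmt1 KO neuroepithelium cells, 795 were from Dnmt1 KO 3, against 117 and 162 from Dnmt1 KO 1 and 2. Median UMIs per cell were 6800 in Dnmt1 KO 3, against 59616 and 37275.5 in Dnmt1 KO 1 and 2. The part of depth in the cluster differences was not tested.

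Of 4448 genes called in any class, 2341 were called in 1 class, 63 were higher in all 10 and 11 were lower in all 10. These counts are without sex as a covariate, which left fewer calls in the classes given below. The 63 included Uba1y and Usp9y of the Y chromosome, with means of 3.61 ± 1.17 and 11.3 ± 3.45 CPM in the Dnmt1 KO embryos (SD). Their means over the 7 WT embryos were 0.0042 ± 0.011 and 0.0050 ± 0.013 CPM (SD). Means this low leave the male WT 2 near 0 too. The 63 held the germline genes Dazl, Sycp1, Sycp2, Hormad1, Hormad2, Tex12, Tex15, Asz1, Fkbp6, Gpat2, Mov10l1, Ddx4, Sohlh2, Dnd1, Stk31, Rpl10l, Rpl39l and Tuba3a, with Rnf17, Rec114 and Tex19.1, which were on no list. The 11 were Dnmt1, Grb10, Cdkn1c, Mbd2, Khdrbs3, Mfap2, Samd1, Csnk2a2, Egln1, Hnrnpa0 and Brd1. Egln1, the oxygen-sensing prolyl hydroxylase PHD2, had a mean of 11.4 ± 0.892 CPM in Dnmt1 KO and 56.5 ± 17.3 CPM in WT embryos (SD, n = 3 and 7; log2 fold change -2.24). Mfap2, a microfibril glycoprotein, was at 3.84 ± 2.02 against 29.3 ± 4.62 CPM (-2.89). Both groups of means differed by more than the spread between embryos. Khdrbs3, an RNA-binding protein that overlaps Gm49422 on its strand, was at 7.05, 5.77 and 11.3 CPM in Dnmt1 KO 1, 2 and 3 against 10.8, 47.4 and 57.2 CPM, and WT 5 fell among the Dnmt1 KO embryos.

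**Figure D3:**
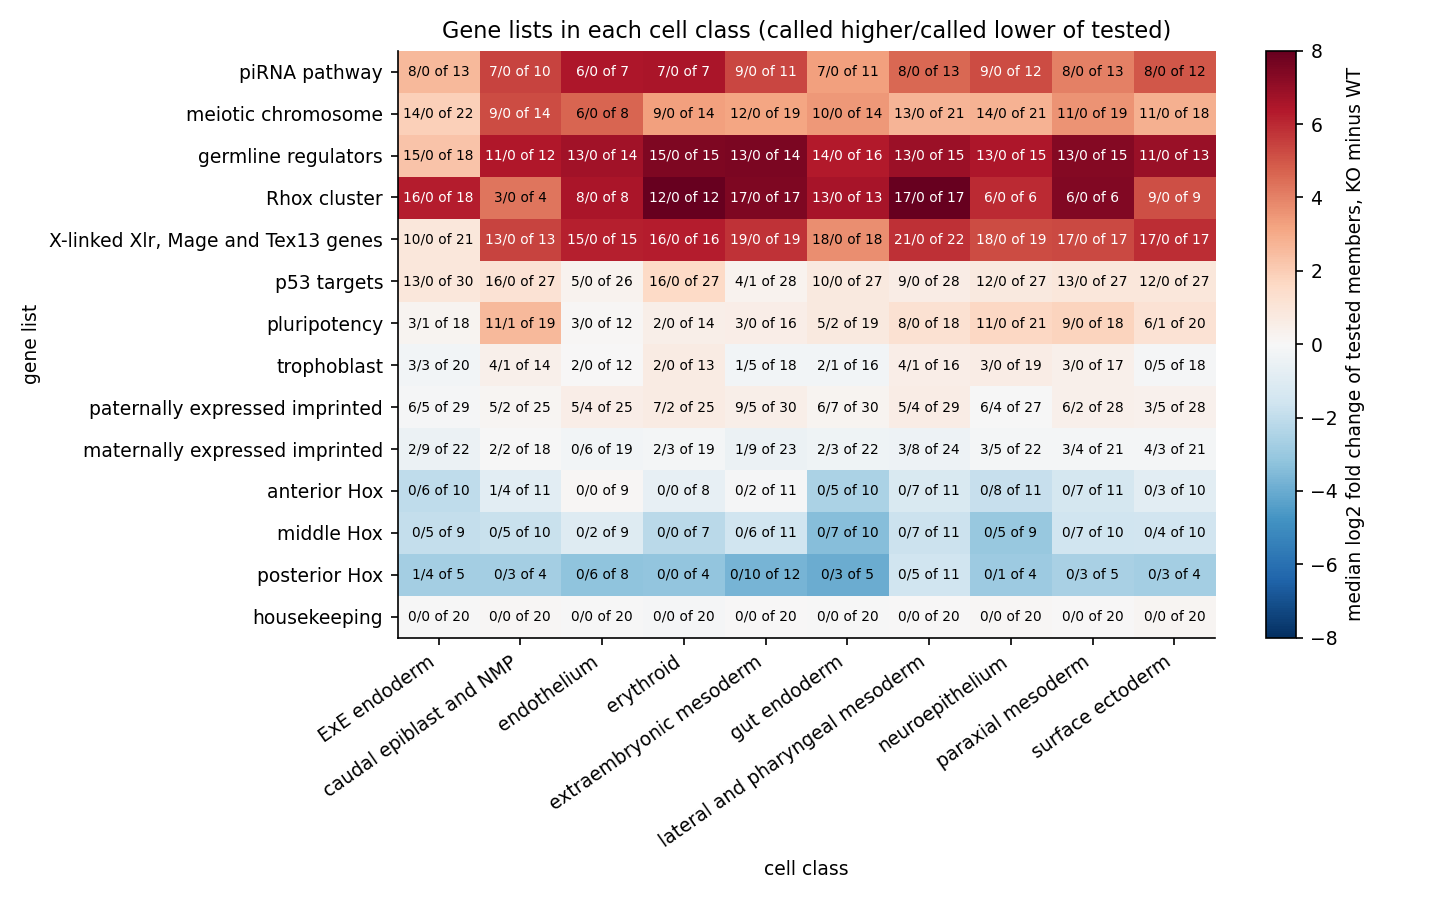
Genes called higher and lower out of those tested for each list (rows) in each of the 10 tested cell classes (columns), with the colour giving the median log2 fold change (Dnmt1 KO minus WT). The germline and X-linked rows are red in all classes, and the Xlr, Mage and Tex13 row is palest in ExE endoderm, where it reads 10 higher of 21.

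Within a class, germline and X-linked genes near 0 in WT cells could be tested only where Dnmt1 KO cells expressed them, so that they had to be higher there and their counts per class are a description. The p53 list, which took no part in the clustering, had more higher than lower members in each of the 10 classes. Its higher targets ranged from 4 of 28 in extraembryonic mesoderm to 16 of 27 in erythroid cells and in caudal epiblast and NMP. Of all genes tested, 558 of 12866, 756 of 11075 and 567 of 11641 were higher in these classes. The housekeeping list had 0 of 20 called by edgeR and by DESeq2 in every class, with 7 to 11 at an unadjusted edgeR p under 0.05.

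In ExE endoderm, the outer layer of the yolk sac, 10 of 21 tested Xlr, Mage and Tex13 genes were higher, with a median log2 fold change of 0.88. In gut endoderm, the other endoderm class, 18 of 18 tested were higher, with a median of 3.69, and some had a smaller change from a WT level that was already well above 0: Trap1a had a WT mean of 108 CPM and a log2 fold change of 2.39, Xlr3a 12.1 CPM and 2.21, and Xlr3b 12.6 CPM and 1.80. Of all genes tested, 509 of 13766 were higher in ExE endoderm and 557 of 12173 in gut endoderm. The classes tested different members, for the reason given above, so that the medians of 0.88 and 3.69 are not compared. The change of each gene in ExE endoderm was compared with that in the 9 other classes pooled, gut endoderm included, in a model blocked by embryo. This contrast was chosen on the same data after the values of the classes had been seen, so that the counts describe the pattern and do not test it independently. Of 16288 genes, 580 had a smaller change or larger fall in ExE endoderm (3.56%) and 220 the opposite (1.35%). Of the X-linked list 16 of 26 tested genes were in the first group, as were 10 of 19 germline regulators, 8 of 25 meiotic and 7 of 17 piRNA genes, and 4 of 19 Rhox genes. Without Dnmt1 KO 1 the counts over all genes were 323 and 136, and without Dnmt1 KO 2 the second was 142.

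Several X-linked genes with a negative difference were already well expressed in ExE endoderm of WT embryos. Rhox5 in ExE endoderm was at 1065, 1062 and 1048 CPM in Dnmt1 KO 1, 2 and 3 and 1063, 1188 and 1278 CPM at the lowest, median and highest WT embryo, and in the other classes at 169, 216 and 130.4 CPM against 11.6, 15.2 and 16.7 CPM. In ExE endoderm the group means were thus close, at 1058 and 1173 CPM, while in the other classes every Dnmt1 KO embryo lay far above every WT embryo (interaction -3.66 on the log2 scale, adjusted p = 1.8e-08). Fmr1nb, a neighbour of Fmr1 expressed in testis, had 192, 185 and 192 CPM against 154, 173 and 179 CPM in ExE endoderm and 37.4, 41.6 and 34.8 CPM against 1.14, 1.55 and 2.96 CPM elsewhere. Trap1a, Xlr3a, Xlr4b and Mageb16 were likewise expressed in WT ExE endoderm, with interactions of -3.84, -3.92, -4.09 and -3.14.

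The germline genes Dazl and Sycp1 were instead low in both compartments of WT embryos and less raised in ExE endoderm. Dazl was at 4.33, 4.82 and 3.35 CPM in ExE endoderm of Dnmt1 KO 1, 2 and 3 against 0.186, 0.494 and 0.829 CPM in WT, and at 50.5, 48.8 and 34 CPM against 0.0328, 0.0967 and 0.135 CPM in the other classes (interaction -5.71, adjusted p = 1.2e-07). Sycp1 was at 11.1, 8.91 and 9.92 CPM in ExE endoderm and 31.4, 32.1 and 22.4 CPM in the other classes of the Dnmt1 KO embryos (interaction -4.76). Free RNA of ExE endoderm can add UMIs to other cells: Ttr, a secreted protein that marks yolk sac endoderm, was at 44.2, 86.2 and 24.3 CPM in the other classes of Dnmt1 KO 1, 2 and 3 and 39.1, 70.4 and 94.9 CPM in WT. The part of free RNA in the values of the other classes was not tested.

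**Figure D4:**
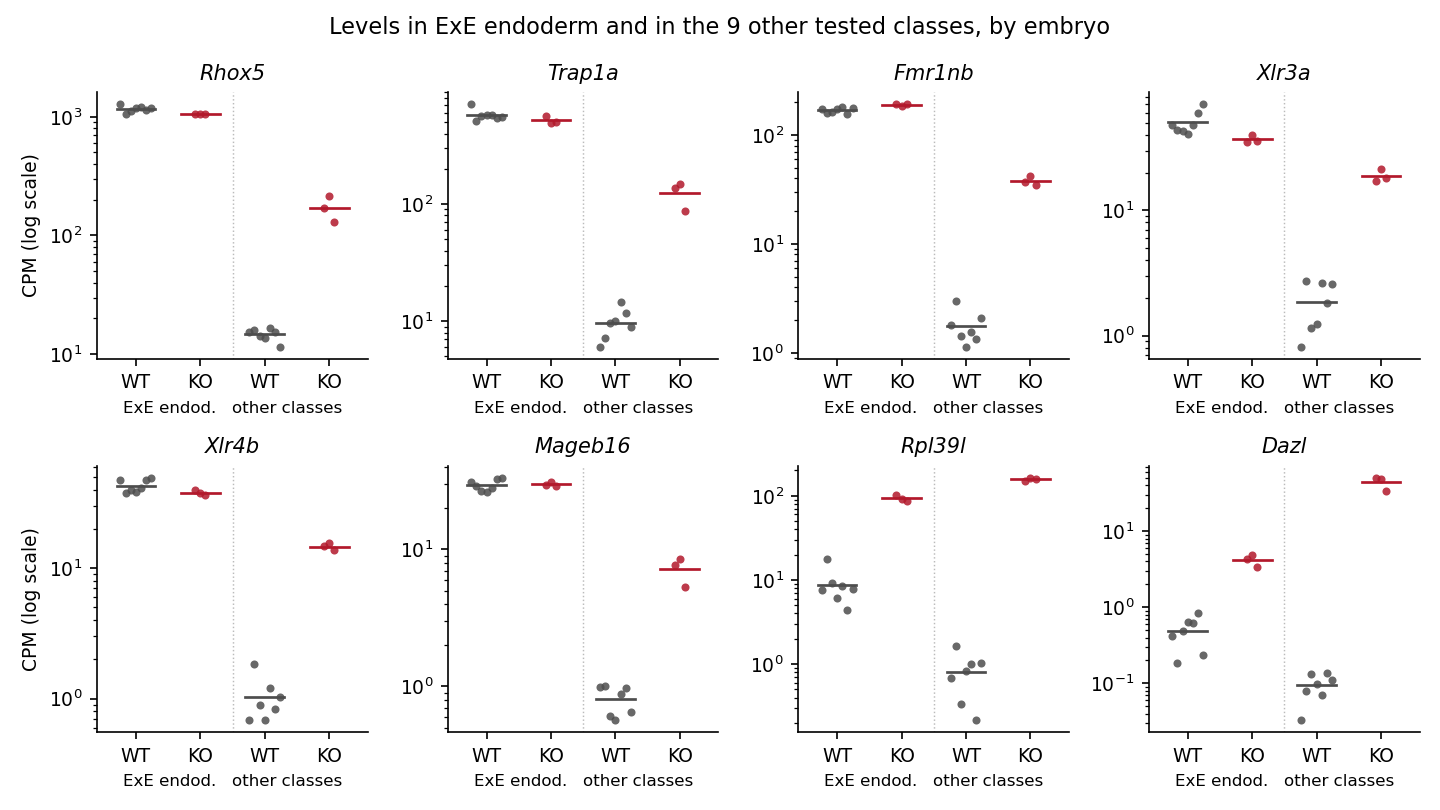
Level of 8 genes in ExE endoderm and in the 9 other tested classes pooled, in CPM on a log axis, 1 point per embryo, Dnmt1 KO in red and WT in grey, with lines at the group means. For Rhox5, Trap1a, Fmr1nb, Xlr3a, Xlr4b and Mageb16 the groups lie closer together in ExE endoderm than in the other classes, whereas Dazl and Rpl39l are separated in both and reach higher levels outside ExE endoderm.

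The makeup of the embryos differed too, and with 3 against 7 embryos an exact two-sided permutation test cannot give a p under 0.0167. ExE ectoderm, the trophoblast compartment, made up 5.39%, 30.5% and 4.39% of kept cells in Dnmt1 KO 1, 2 and 3, and 0% to 1.68% in the WT embryos, of which 4 had none, which allows shares of up to 0.0331% to 0.217%. Every Dnmt1 KO embryo was above every WT embryo (exact permutation p = 0.0167, adjusted over 15 classes 0.0625). No cell of any Dnmt1 KO embryo was assigned to neural crest, which allows shares of up to 0.200%, 0.0950% and 0.104%. The class made up 0.495% to 1.89% in WT. Cardiomyocytes made up 0.266%, 0% and 0.0346% against 1.52% to 3.18%, and gut endoderm 2.06%, 1.61% and 2.04% against 2.50% to 7.97%. For these 3 classes the groups did not overlap either, with the same smallest p of 0.0167 and adjusted p of 0.0625, so that no class passed 0.05 after adjustment. Limits on a share of 0 cells cover counting error only, and not cells of that type placed in another class or left unnamed.

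Caudal epiblast and NMP (3.20%, 2.69% and 1.73% against 3.05% to 6.32%) and paraxial mesoderm (2.66%, 2.37% and 2.14% against 2.64% to 9.58%) overlapped at the edge of the WT range (adjusted p = 0.0833 for both, exact permutation test). The 3 Dnmt1 KO embryos were unlike each other in the large classes. ExE endoderm took 28.0%, 26.6% and 8.503% of cells against 9.602% to 20.05%, and neuroepithelium 7.79%, 5.13% and 27.5% against 11.4% to 20.5%. Dnmt1 KO 3 was thus low in the first and high in the second, and its median of 6800 UMIs per cell was the lowest of the Dnmt1 KO embryos. Erythroid cells took 5.86%, 5.22% and 7.85% against 4.91% to 23.1%, within the WT range. How much embryo and how much extraembryonic tissue entered each dissociation is not recorded, so dissection and genotype cannot be told apart as the source of a share.

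**Figure D5:**
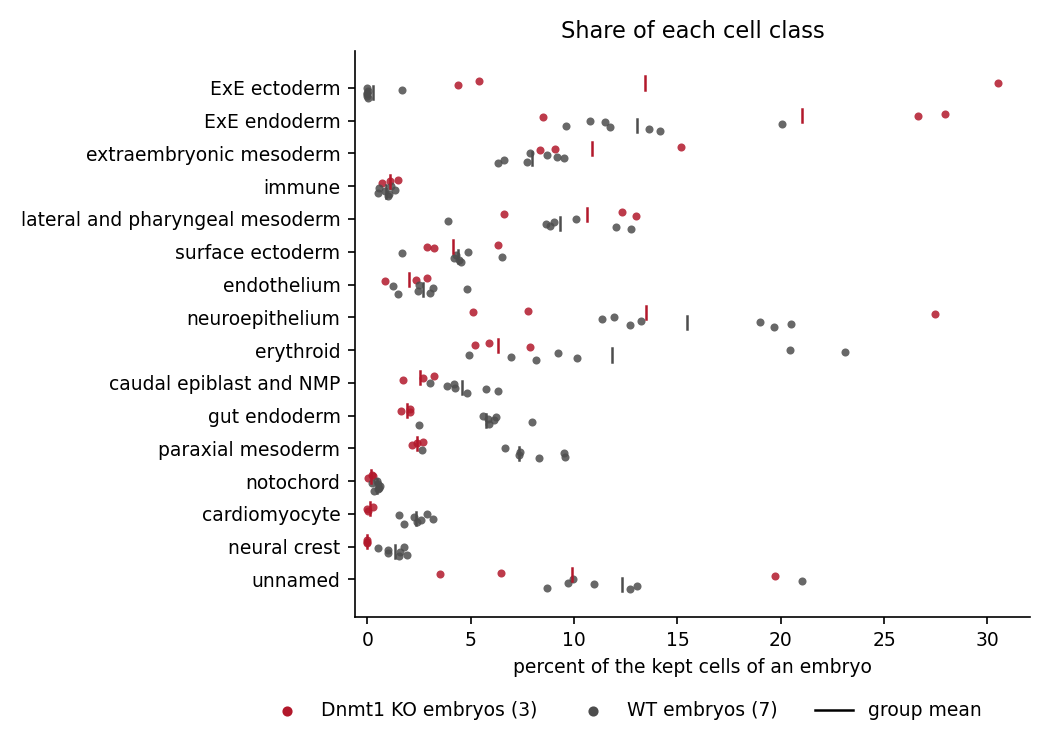
Share of kept cells in each class, in percent, 1 point per embryo, with the 3 Dnmt1 KO embryos in red, the 7 WT embryos in grey and bars at the group means. ExE ectoderm lies above the WT range in all 3 Dnmt1 KO embryos (4.39% to 30.5%), neural crest and cardiomyocytes lie below it, and ExE endoderm and neuroepithelium spread widely among the Dnmt1 KO embryos.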

How the data were processed

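The authors aligned and counted reads in Cell Ranger and deposited, for each embryo, raw UMI counts of the barcodes called as cells; per the file headers the 10 libraries were made with version 3.1.0, whereas the methods of the study name 5.0.0. The reference of WT 1 also held the human genome; its human genes (0.00906% of counts) were dropped. The same 31053 mouse genes were in every library. Positions are from the GENCODE M21 annotation of mm10, which held 31011 of the identifiers.

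Barcodes with at least 1500 mouse UMIs and at most 30% mitochondrial counts were kept, and the counts were summed per embryo. No doublet caller was applied; an alternative dropped cells with over 35% ribosomal protein counts and the cells with the most UMIs at 0.8% per 1000 cells. Genes with low counts were removed with filterByExpr, libraries were scaled by TMM, and sums were tested by quasi-likelihood in edgeR 4.0.16 (R 4.3.3), with Dnmt1 KO and WT embryos alone in the fit and no covariate, with Benjamini-Hochberg adjustment across the tested genes. The SE of a log2 fold change (KO minus WT) is its size divided by the root of the F statistic. Calls needed an adjusted p under 0.01 together with an absolute log2 fold change of 1 or more. In counts simulated for this comparison, 92% of genes changed by 1.5 on the log2 scale and 98% of those changed by 2 were recovered. This was among 18066 genes, with 1 false call. For the comparison of ExE endoderm with other classes, 96% of genes changed by 2 were recovered among 13462, with 4 false calls. That simulation gave every gene the same dispersion and changed only genes with a mean over 1 CPM. The rates belong to simulated counts and are not error rates of the calls reported here. Kept cells summed to between 37342307 UMIs in WT 5 and 252074888 UMIs in WT 1, so low levels were least precise in WT 5. Each library is 1 embryo; litters are not given in the labels, so p-values measure the spread between these embryos.

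WT cells were clustered (2500 variable genes, 50 components, 30 neighbours, Leiden resolution 2, with leidenalg 0.10.2). Of 41 clusters 36 were named from marker genes, in 15 classes. A name needed a mean log2 fold of the markers of at least 1, a lead of 0.1 over the next class and 3 markers at 1.5-fold or more in 10% of cells; these thresholds were not part of the planned design. Each cell took the class held by at least 50% of its 30 nearest WT cells. This vote was planned with WT cells of other libraries, but WT 2 held 134 of the 137 reference cells of ExE ectoderm, so WT cells of the same library were admitted, except the cell itself. Shares were compared by an exact two-sided permutation test of log2 shares with 0.5 cells added, adjusted over 15 classes.

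The compared embryos, gene lists and tests were chosen with earlier results of these data known, so no list was given a test of its own. Genes named were Dnmt1; up to 4 called members per list with the largest change, and the largest in the opposite direction; the 10 most abundant genes called higher from a WT mean under 1 CPM; the 10 higher and 10 lower autosomal genes with the largest change among those with a WT mean of at least 10 CPM and no overlap; and the 5 higher and 5 lower such genes called in the most classes. Other list members named account for those not called. Samd1, Csnk2a2, Egln1, Hnrnpa0, Brd1, Rnf17, Rec114 and Tex19.1, which were called in every class tested, and the genes set side by side in ExE endoderm and the other classes were chosen after their values were seen. Alternatives were DESeq2 1.42.0, no low-count filter, a replicate block, sex as a covariate, all 18 libraries in the fit, thinning to the smallest library, a stricter cell filter, omission of ExE cells and omission of each embryo. Chosen after seeing the data were the comparison with WT 2 alone, omission of WT 2 and WT 5 together, the ExE endoderm contrast itself and the same contrast with extraembryonic mesoderm alone.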

Additional observations from a re-analysis of the deposited data

Results flagged for a closer look

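Of 123 measures tested for a sample far from the others among the 7 WT embryos (Dixon's test at 95%), 21 were past the limit. The chance rate of about 1 in 20 holds for independent, normally distributed values. Levels near 0 and measures of the same embryos are not such values, so the 21 flags are a description. WT 2 accounted for 10 of the 21. It had the highest ExE ectoderm share of the WT embryos (1.68% of kept cells), and trophoblast genes stood apart in the same library: Elf5 was at 1.84 CPM, Ascl2 at 3.42 CPM. The pluripotency gene Utf1 was at 5.43 CPM in that library. In WT 2 the germline genes Sycp1 (0.513 CPM) and Sohlh2 (0.227 CPM), the X-linked ferritin-like gene Fthl17a (2.12 CPM) and Dnmt3l (1.38 CPM) also lay far above the other WT embryos. Usp17lc of the 2-cell list was flagged there too, at 0.0175 CPM, which is a few UMIs. The share of paraxial mesoderm in WT 2 was far from the rest at 2.64%. The part of the ExE ectoderm cells in these values was not tested. WT 5, the smallest WT library, stood apart in Mbd2 (23.6 CPM), Ifi27 (0.187 CPM) and Khdrbs3 (10.8 CPM).

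WT 1 stood apart in the heart muscle actin Actc1 (360 CPM), the matrix proteoglycan Dcn (5.79 CPM) and the small heat shock gene Hspb1 (38.90 CPM). WT 3 did so in Trim5 (0.237 CPM) and in the metallothionein gene Mt1 (525 CPM). Rhox2b and Rhox2c were at 0.00567 CPM in WT 4, which is 1 UMI each, and at 0 in the other WT embryos. WT 7 had a gut endoderm share of 2.50%.

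The change between Dnmt1 KO and WT differed between ExE endoderm and the other 9 classes (edgeR model blocked by embryo) for 29 of 105 named genes, 23 with a lower log2 fold change in ExE endoderm. Over all 16288 genes 3.56% had a lower and 1.35% a higher value; the named genes were picked for large changes, so the shares are not comparable. Among germline genes the differences on the log2 scale were -8.02 for Pdha2, -6.26 for Tex13b, -5.71 for Dazl, -4.78 for Gtsf1, -4.76 for Sycp1, -4.24 for Asz1, -3.74 for Fkbp6, -3.15 for Hormad1, -2.40 for Stra8, -2.36 for Cyct and -2.15 for Gpat2. WT means of Pdha2 and Gtsf1 were under 0.05 CPM in both compartments, and those of most of the others were under 0.5 CPM outside ExE endoderm, so the sizes of these differences rest on few WT UMIs. The ferritin-like genes Fthl17c and Fthl17a, on the X chromosome, differed by -5.85 and -4.06. Most were near 0 in the other classes of WT embryos: Asz1 was at 0.987 CPM in ExE endoderm and 0.0939 CPM elsewhere in WT, and at 14.6, 13.3 and 10.9 CPM against 26.2, 24.5 and 24.2 CPM in Dnmt1 KO embryos.

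Pluripotency genes differed in the same direction, with -5.71 for Tdgf1, -2.88 for Utf1 and -1.88 for Dppa5a. The heart genes Actc1 and Myl2 differed by -4.21 and -4.73; in ExE endoderm Actc1 was at 0.309, 0.561 and 0.268 CPM in Dnmt1 KO embryos against a mean of 8.34 CPM in WT. Cardiomyocytes, the cells known for both genes, made up 0% to 0.266% of kept cells in Dnmt1 KO and 1.52% to 3.18% in WT embryos, and the part of their free RNA in the ExE endoderm values was not tested. Negative differences were also found for Dglucy of the p53 list (-3.54), Hspb1 (-2.75), the interferon-inducible tetherin gene Bst2 (-1.71), the imprinted Dlk1 (-1.49) and the stress gene Gadd45b (-1.21).

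The other 6 had a higher log2 fold change in ExE endoderm. The trophoblast genes Elf5, Wnt7b and Ascl2 differed by 4.24, 3.26 and 2.90; in ExE endoderm of Dnmt1 KO embryos Elf5 was at 0.0238, 1.404 and 0 CPM, so that 1 embryo carried its level. Eda2r, a target of p53, differed by 1.77, Gm42047 by 1.76 and Noct by 1.27.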

How the results depend on the processing

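Of the alternatives to the summed results, 605 stayed within their limits, 53 moved and 6 turned direction; of 107 named genes, 106 kept their direction in each alternative and 57 were called in each. Wnt7b alone turned, to -0.75 on the log2 scale without ExE cells. The whole-embryo counts of 1375 higher and 1054 lower genes became 374 and 326 with sex as a covariate, where WT 2 was the 1 male WT embryo, 72 and 67 against WT 2 alone, where the spread comes from the Dnmt1 KO embryos and the lone WT embryo is assumed to vary alike, and 845 higher genes with libraries thinned to the smallest. With sex, the higher counts were 31 for germline, 26 for X-linked, 4 for imprinted, 0 for Hox, 2 for pluripotency, 2 for trophoblast and 7 for p53 genes, and the lower counts 11 for imprinted, 0 for pluripotency and 22 for somite, neural and heart genes. By class, sex left 219 calls in ExE endoderm, 272 in endothelium, 642 in erythroid cells, 480 in extraembryonic mesoderm, 544 in gut endoderm, 567 in lateral and pharyngeal mesoderm, 868 in neuroepithelium, 468 in paraxial mesoderm and 421 in surface ectoderm; endothelium had 1069 without the low-count filter. Without ExE cells, 0 Hox genes were called higher and 4 trophoblast genes. The surface ectoderm difference turned to 0.00424 with the stricter cell filter. The cause was not tested.

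Same-numbered embryos deviated together with r = 0.133, -0.00612 and -0.291, so the numbers did not pair them, and the fit with the number as a replicate block is given here alone: it called 391 genes higher and 200 lower, with 3, 0, 3 and 7 imprinted, Hox, trophoblast and p53 genes higher and 9, 12, 1 and 24 imprinted, Hox, pluripotency and somite, neural and heart genes lower.

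With each embryo left out in turn, 1174 to 1608 genes were higher and 583 to 1301 lower (583 without Dnmt1 KO 2, 696 without Dnmt1 KO 1), and Dnmt1 ranged from -2.73 to -2.66. Higher counts were 44 to 47 for germline, 44 to 48 for X-linked, 8 to 11 for imprinted, 9 to 13 for pluripotency, 7 to 10 for trophoblast and 11 to 13 for p53 genes. Lower counts were 15 to 18 for imprinted, 19 to 26 for Hox, 1 to 4 for pluripotency and 36 to 49 for somite, neural and heart genes. Calls by class were 604 to 970 in ExE endoderm (604 without Dnmt1 KO 1) and 551 to 936 in paraxial mesoderm (551 without Dnmt1 KO 3). The ExE endoderm contrast gave 323 to 651 negative and 136 to 228 positive differences (323 and 136 without Dnmt1 KO 1, 142 positive without Dnmt1 KO 2). Log2 share differences ranged from 7.18 to 9.003 for ExE ectoderm, -6.34 to -4.22 for cardiomyocytes, -6.22 to -5.69 for neural crest, -2.01 to -0.75 for notochord, -1.25 to -0.04 for neuroepithelium and 0.24 to 1.10 for ExE endoderm; 3 crossed 0, namely surface ectoderm (-0.42 to 0.14; 0.145 without Dnmt1 KO 2, 0.0657 without Dnmt1 KO 3, 0.0405 without WT 4), endothelium (-0.77 to 0.09; 0.0921 without Dnmt1 KO 3) and immune cells (-0.01 to 0.53; -0.0104 without Dnmt1 KO 1). A minimum of 50 cells could not be fitted in caudal epiblast and NMP, endothelium, gut endoderm and paraxial mesoderm. Depth limits the genes at a few UMIs, and WT 5 is the shallowest library.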

Other observations

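The change differed between ExE endoderm and the other classes (edgeR, adjusted p under 0.01 and a difference of at least 1) in 11 of 24 heart genes with a lower and 1 with a higher value in ExE endoderm, in 8 and 0 of 31 paternally expressed imprinted genes and in 5 and 0 of 23 pluripotency genes. Targets of p53 gave 2 lower and 3 higher of 30. Over all genes tested the shares were 3.56% lower and 1.35% higher.

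A group of granzyme genes, cytotoxic serine proteases known from uterine natural killer cells, was found in 1 library. In Dnmt1 KO 1 Gzmc was at 6.85 CPM, Gzmd at 15.6 CPM, Gzme at 6.50 CPM, Gzmf at 19.9 CPM, Gzmg at 14.2 CPM and the pore-forming Prf1 at 1.17 CPM. None of these 6 genes exceeded 0.0555 CPM in the other 9 embryos (Gzmc in WT 1). No doublet or maternal cell was removed, and the counts given without Dnmt1 KO 1 leave this library out.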
